A study of Zea mays with 8 samples.

Results

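The naked endosperm genes nkd1 and nkd2 and the viviparous gene vp1 encode transcription factors of aleurone fate and seed maturation in maize (Zea mays). The 3 genes were chosen by gene ID and name: Zm00001d002654 (nkd1), Zm00001d026113 (nkd2) and Zm00001d042396 (vp1), among the 37965 gene IDs counted. RNA-seq counts came from 8 libraries of endosperm of the inbred line A188, 19 days after pollination, enriched for the EAS. This abbreviation stands for the endosperm that lies against the scutellum, a shield-like organ of the embryo. In one group, the labelled genotype was KIL1 KIL2 knockout (4 libraries), and in the other it was wild type (4 libraries). KIL1 and KIL2 are transcription factors of the NAC family, and the series asks what their loss changes in this tissue. The nature of the knockout alleles and the number of ears or plants behind a library are not given in the sources used here, so each p-value reflects the spread among these libraries alone, part of which may be technical.

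The aleurone is the outer epidermis-like layer of the endosperm, which stays alive in the mature grain and secretes enzymes at germination, while the starchy endosperm beneath it fills with starch and protein and dies. NKD1 and NKD2 are paralogous zinc-finger factors of the indeterminate-domain family. In plants that lack both, the endosperm carries several layers of cells with incomplete aleurone identity. VP1 is a B3-domain factor, the maize counterpart of ABI3 of Arabidopsis. It relays abscisic acid signals in embryo and aleurone, activates the anthocyanin regulator C1 and other maturation genes, and keeps the embryo from germinating on the ear.

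Libraries held 47143888 to 80577963 counts, with wild type replicate 2 the deepest and knockout replicate 1 the shallowest. The first principal component of log2 CPM (normalised counts: counts relative to the TMM-scaled library size) took up 41.1% of the variance and split the libraries by genotype. The second component, with 16.7%, placed knockout replicate 1, at a score of 43.67, apart from the other libraries, which lay between -22.32 and 13.65. Gene IDs of the table are not paired with names in the sources used here, so KIL1 and KIL2 transcripts, markers of the EAS, embryo, aleurone and other tissues, and genes known to act with nkd1, nkd2 and vp1 were not analysed. The genotype and tissue labels were therefore not checked against transcripts.

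The gene nkd1 lay on chromosome 2 (18870923 to 18878546, minus strand of the deposited A188 annotation), nkd2 on chromosome 10 (141472503 to 141478369, minus strand) and vp1 on chromosome 3 (170220132 to 170234202, plus strand). No other gene of the table overlapped any of the 3 spans on either strand. The reference table for names places genes called nkd1, nkd2 and vp1 on the same chromosomes. The annotation stacked 125 exon intervals at nkd1, 65 at nkd2 and 36 at vp1, some of which ran across introns of others, so the merged exons used for counting covered 96.3% to 97.6% of each span. The merged exon length was 7340 bases for nkd1, 5715 for nkd2 and 13729 for vp1. Bases held by at least 50% of the largest number of stacked intervals, called core exons here, came to 2393 bases for nkd1, 2386 for nkd2 and 2418 for vp1.

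The core exons of the paralogs nkd1 and nkd2 followed one layout, with blocks of 324, 400 and 1669 bases from the start of nkd1 and blocks of 277, 400 and 1709 bases from the start of nkd2. The core of vp1 had 7 blocks, 3 on one side and 4 on the other of a gap of 10405 bases. Some annotated intervals of vp1 ran through that gap, and the merged length of vp1 was 5.68 times its core length. A level of vp1 divided by merged length is therefore far lower than one divided by core length.

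**Figure D1:**
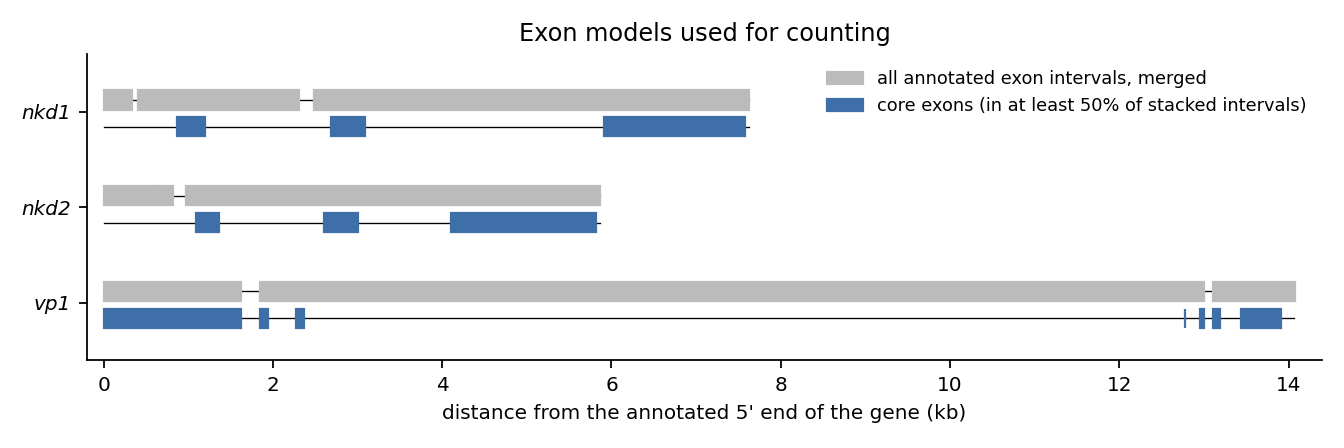
Exon models of nkd1, nkd2 and vp1 against distance from the annotated start of each gene in kb. Grey blocks are all annotated intervals merged, which the counting used, and blue blocks are core exons. The core exons of nkd1 and nkd2 form 3 blocks each, and those of vp1 form 7 blocks around a gap of 10405 bases.

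The transcript nkd1 was abundant in this tissue, nkd2 was several-fold lower and vp1 was low. Per kb of merged exon, wild type libraries held 17.9 ± 0.41 CPM of nkd1 (SD, n = 4), 6.86 ± 0.55 CPM of nkd2 and 0.062 ± 0.031 CPM of vp1. Per kb of core exon, the same libraries held 54.9 ± 1.25 CPM of nkd1, 16.4 ± 1.32 CPM of nkd2 and 0.352 ± 0.173 CPM of vp1. Reads counted outside core exons stay in these values, so levels within core exons alone would be at most as high. The order from nkd1 to nkd2 to vp1 was the same in each of the 8 libraries on both scales, and no library of one gene reached the level of the next. By mean CPM over the 8 libraries, with no division by length, nkd1 stood at percentile 94.3 of the 22014 tested genes, nkd2 at percentile 75.3 and vp1 at percentile 19.2. By mean CPM per kb of merged exon, the percentiles were 78.5 for nkd1, 54.9 for nkd2 and 1 for vp1, and the long merged model of vp1 lowers its place on this scale. In bulk tissue, fewer cells of a type and less RNA per cell cannot be told apart.

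Of the 3 genes, all 3 passed the count filter and 0 changed between the genotypes at an adjusted p below 0.05 (quasi-likelihood test of edgeR, adjusted by Benjamini-Hochberg), against 18.6% of all genes tested. The unadjusted p of edgeR was below 0.05 for 0 of the 3 as well. The smallest of them, 0.0736 for vp1, ranked 7953 from the smallest among the 22014 tested genes. DESeq2 and limma-voom each called 0 of the 3, where they called 4874 and 4074 of the 22014. Levels of the 2 genotypes overlapped for all 3 genes, while 23.2% of the tested genes had no overlap. With 3 genes, these counts do not set the group apart from other genes. The estimates pointed in different directions, above 0 for nkd1 and vp1 and below 0 for nkd2.

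**Figure D2:**
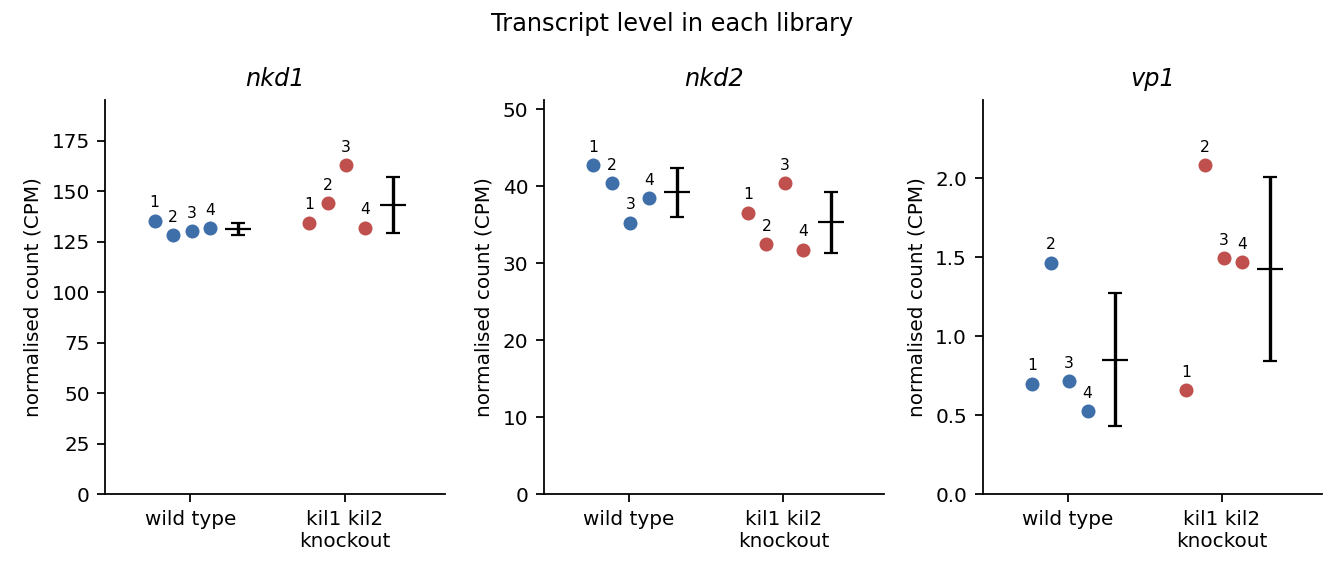
Normalised counts (CPM) of nkd1, nkd2 and vp1 in each library, with the replicate number above each point and the mean ± SD of each group of 4 in black. Vertical axes start at 0. Knockout and wild type points overlap for each gene, and wild type nkd1 values lie closest together.

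For nkd1, the wild type libraries measured 135, 128, 130.2 and 132 CPM in replicates 1 to 4, and the knockout libraries measured 134, 144, 163 and 132 CPM. Wild type values lay within a narrow band, and 2 of the 4 knockout libraries, replicates 2 and 3, lay above it. The means were 131 ± 3 CPM in wild type (SD, n = 4) and 143 ± 14 CPM in the knockout, a log2 fold change of 0.12 (SE 0.06, 95% interval -0.02 to 0.27, edgeR adjusted p = 0.216). On a linear scale, the interval ran from 0.988-fold to 1.2-fold. Falls beyond the first value and rises beyond the second lie outside it. Knockout replicate 3 carried much of the estimate, which was 0.06 without it (edgeR adjusted p = 0.409).

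Between libraries of one genotype, nkd1 varied more in the knockout, with a coefficient of variation of 9.8% against 2.3% in wild type. That difference in spread was not tested. Counting error alone, taken as Poisson with each count independent, gave 0.95% to 1.28% at the 6102 to 11017 counts that nkd1 received per library. The spread between libraries exceeded counting error in both genotypes.

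For nkd2, the wild type libraries measured 42.7, 40.5, 35.3 and 38.5 CPM, and the knockout libraries measured 36.6, 32.5, 40.4 and 31.8 CPM. The knockout libraries of replicates 2 and 4 lay below all wild type libraries, and those of replicates 1 and 3 lay within the wild type range. The means were 39.2 ± 3.16 CPM in wild type and 35.3 ± 4 CPM in the knockout, a log2 fold change of -0.15 (SE 0.08, 95% interval -0.34 to 0.03, edgeR adjusted p = 0.24). On a linear scale, the interval ran from 0.792-fold to 1.02-fold.

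The call on nkd2 depended on how libraries were scaled. With libraries scaled by their totals only, the log2 fold change was -0.27 and the gene passed the threshold (edgeR adjusted p = 0.0246). That scaling moved the median of all tested genes to -0.12, and nkd2 lay -0.15 from that median, as it did with TMM factors. Among genes with an adjusted p below 0.05, 1873 were higher and 2213 lower with TMM factors, and 1032 were higher and 4743 lower with library totals.

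Knockout replicate 3 was the highest of the knockout libraries for both nkd1 and nkd2, and knockout replicate 4 the lowest for both. Wild type replicate 1 was the highest wild type library for both. The sum of nkd1 and nkd2 per kb of merged exon was 24.8 ± 0.84 CPM in wild type and 25.7 ± 2.47 CPM in the knockout. The difference of 0.93 CPM was smaller than the SD of the knockout libraries and slightly larger than that of the wild type libraries. It was not tested.

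Within that sum, nkd1 made up 74.1%, 77.5%, 75.8% and 76.4% in knockout replicates 1 to 4, and 71.2%, 71.2%, 74.2% and 72.7% in wild type replicates 1 to 4. The ranges met only where knockout replicate 1 lay below wild type replicate 3. The mean share was 76% ± 1.44 in the knockout and 72.3% ± 1.45 in wild type (SD, n = 4), and the ratio of nkd1 to nkd2 per kb was 3.17 ± 0.25 against 2.62 ± 0.19. The share needs no scaling between libraries, and no test was made of it. With core exon length, the shares were 80.2% ± 1.26 and 77% ± 1.28. Reads that align equally well to several places were not counted, so a stretch identical in nkd1 and nkd2 would add to neither count.

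**Figure D3:**
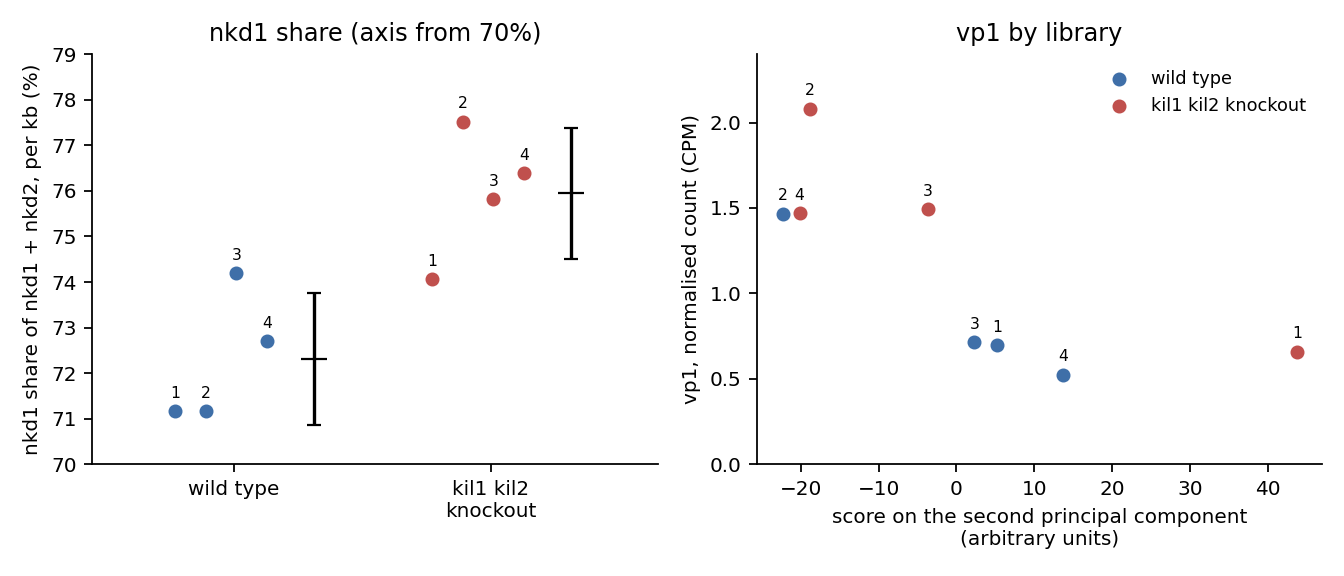
Left, share of nkd1 in the sum of nkd1 and nkd2 per kb of merged exon, in percent, for each library, with mean ± SD in black and an axis that does not start at 0. Right, vp1 in CPM against each library's score on the second principal component of all tested genes. The 4 libraries with a score below 0 are the 4 with the most vp1, between 1.47 and 2.08 CPM.

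For vp1, the wild type libraries measured 0.698, 1.47, 0.716 and 0.525 CPM, and the knockout libraries measured 0.66, 2.08, 1.49 and 1.47 CPM. Values fell into a lower set (wild type replicates 1, 3 and 4 and knockout replicate 1) and a higher set (wild type replicate 2 and knockout replicates 2, 3 and 4), each with libraries of both genotypes. The means were 0.851 ± 0.419 CPM in wild type and 1.43 ± 0.58 CPM in the knockout, a log2 fold change of 0.73 (SE 0.37, 95% interval -0.08 to 1.54, edgeR adjusted p = 0.204). On a linear scale, the interval ran from 0.944-fold to 2.92-fold, so neither an equal level nor a rise of nearly 3-fold lies outside it.

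The estimate for vp1 rested on few counts, from 30 (exact Poisson 95% interval 20.2 to 42.8) in knockout replicate 1 to 126 (105 to 150.0) in wild type replicate 2. These intervals cover counting error only. The counts were made over merged exons with no option set for strand, and how many lay within core exons was not tested. Its SE was larger than that of 91.5% of the tested genes, whose median SE was 0.1. Single libraries moved the estimate: the log2 fold change was 1.15 without wild type replicate 2 (edgeR adjusted p = 0.0555) and 0.5 without knockout replicate 2 (edgeR adjusted p = 0.428).

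The level of vp1 differed between libraries on either side of 0 on the second principal component, which was computed over all tested genes, vp1 included. The libraries nearest to 0 were knockout replicate 3 (-3.63) and wild type replicate 3 (2.31), so the division at 0 separates libraries with similar scores. The 4 libraries with a score below 0 (3 knockout and 1 wild type) held 1.47 to 2.08 CPM of vp1, and the 4 with a score above 0 (1 knockout and 3 wild type) held 0.525 to 0.716 CPM. Wild type replicate 2 and knockout replicate 4, at scores of -22.32 and -20.14, both measured 1.47 CPM. Knockout replicates 2 and 3, at scores of -18.8 and -3.63, measured 2.08 and 1.49 CPM. Among these 4 libraries, and among the 4 above 0, vp1 did not rise or fall steadily with the score. What the component stands for, and its part in the difference between the genotypes, was not tested.

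**Figure D4:**
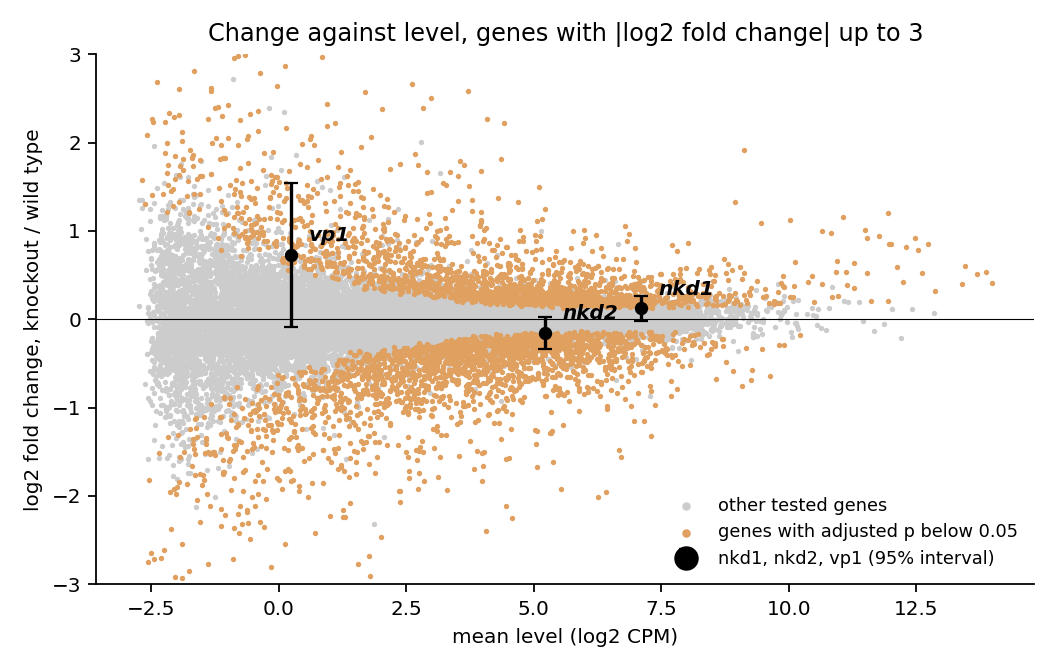
Log2 fold change of knockout over wild type against mean level (log2 CPM) for the tested genes, with genes past an adjusted p of 0.05 in orange and nkd1, nkd2 and vp1 in black with 95% intervals. Genes beyond a log2 fold change of 3 in either direction are outside the axis. Each of the 3 intervals includes 0, and that of vp1 is the widest.

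Set against all tested genes, the differences of nkd1 and nkd2 were of middling size. Their log2 fold changes, without sign, stood at percentiles 43.7 and 50.3 of all tested genes, whose median was 0.15. That of vp1 stood at percentile 91.9, at a level where fold changes scatter widely. The biological coefficient of variation that edgeR fitted was 7.2% for nkd1, 8.8% for nkd2 and 35.7% for vp1, against a median of 10.1%.

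The gene on either side of each of the 3 was looked up by position. The neighbour of nkd2 at lower coordinates (chromosome 10, 141450074 to 141469416, plus strand) ended 3086 bases from the 3-prime end of nkd2 and faced it. It fell from 5.13 ± 1.13 CPM in wild type to 3.08 ± 0.7 CPM in the knockout (SD, n = 4), a log2 fold change of -0.74 (SE 0.19, edgeR adjusted p = 0.0216). It was the only one of the 4 tested neighbours to pass with TMM factors, where 18.6% of all tested genes passed. With 4 genes, this count does not set the neighbours apart from other genes. Its call was lost without knockout replicate 1 (log2 fold change -0.71, edgeR adjusted p = 0.0529), without wild type replicate 2 (-0.59, edgeR adjusted p = 0.0722) and without wild type replicate 3 (-0.71, edgeR adjusted p = 0.0553). The lower neighbour of nkd1 (chromosome 2, 18820010 to 18828933), 41989 bases away, had a log2 fold change of 0.05 (SE 0.05, edgeR adjusted p = 0.541). The neighbours of vp1 lay 39095 and 9747 bases away, with log2 fold changes of 0.01 (SE 0.05, edgeR adjusted p = 0.882) and -0.17 (SE 0.08, edgeR adjusted p = 0.16). The upper neighbours of nkd1 and nkd2 had 1 and 4 counts over all libraries and were not tested.

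The gene whose log2 CPM followed each of the 3 most closely over the 8 libraries was sought among tested genes whose mean log2 CPM was 1 or more. For nkd1 this was Zm00001d019139 on chromosome 7 (19227159 to 19236381), with a Pearson correlation of 0.986, and its levels were 177 ± 1.82 CPM in wild type and 191 ± 13.5 CPM in the knockout. For nkd2 it was Zm00001d042361 on chromosome 3 (169104429 to 169105829), with a correlation of 0.989, at 9.3 ± 1.47 CPM in wild type and 7.93 ± 1.96 CPM in the knockout. For vp1 it was Zm00001d026351 on chromosome 10 (146821622 to 146827867), with a correlation of 0.977, at 1.69 ± 0.84 CPM in wild type and 3.14 ± 1.3 CPM in the knockout. Correlations of at least 0.95 were found for 22 genes with nkd1, 23 with nkd2 and 5 with vp1, of 16333 or 16334 genes compared. These correlations describe 8 libraries that share a genotype in groups of 4, and each is the highest of many. None of the 3 most similar genes passed the test between the genotypes, against 18.6% of all genes tested. Their edgeR adjusted p were 0.17, 0.376 and 0.12 in the order given. Each was chosen for following a gene that did not pass over the same libraries, so this outcome adds no separate evidence.

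**Figure D5:**
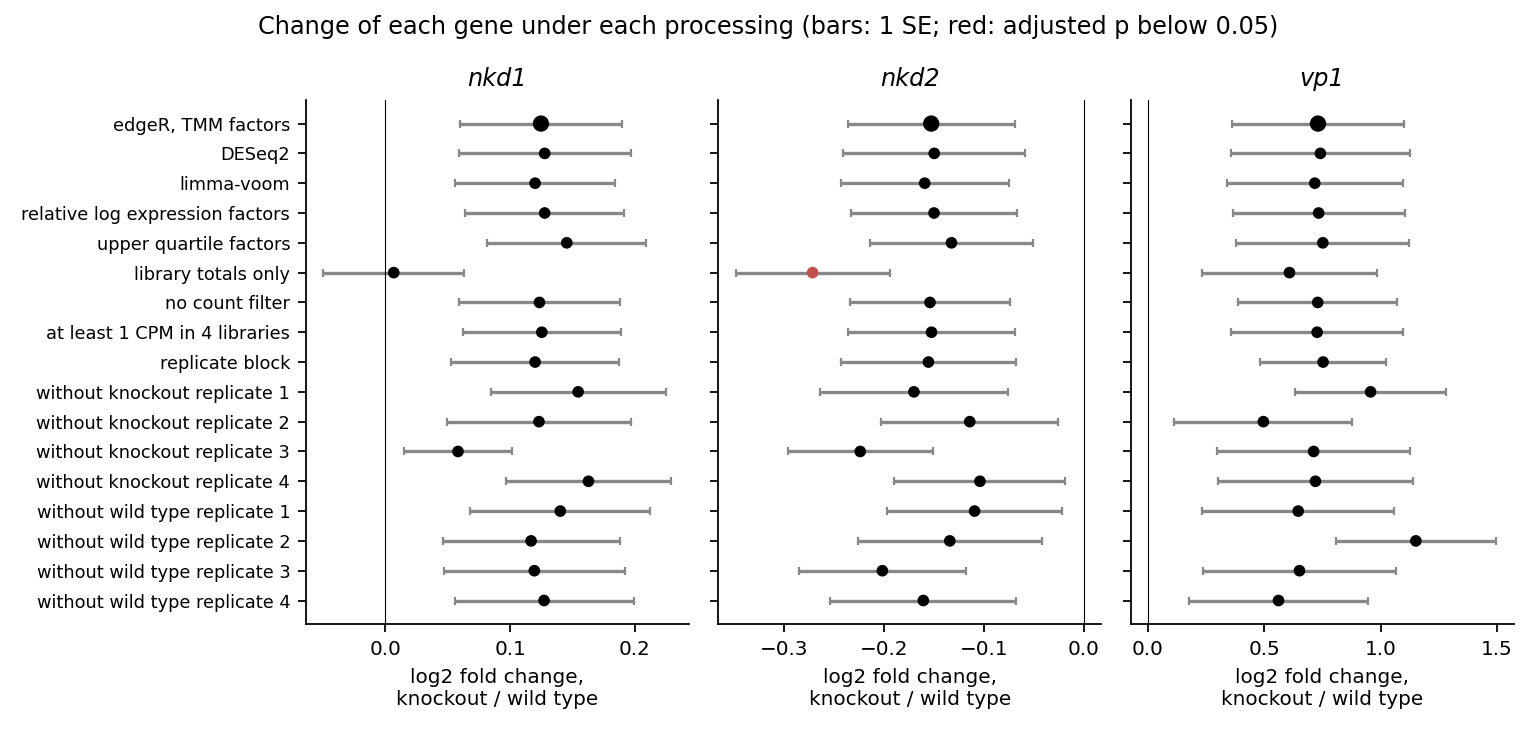
Log2 fold change of knockout over wild type for nkd1, nkd2 and vp1 under each processing alternative, with bars of 1 SE and red points where the adjusted p was below 0.05. The only red point is nkd2 with library totals, at -0.27, and no estimate changes sign.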

How the data were processed

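The deposited values were counts of reads for each gene, not normalised, made by the authors with featureCounts 2.0.1 on an annotation of A188, per the file headers, with no option set for strand, pairs, multi-mapping or overlapping genes. Trimmomatic 0.39 and HISAT2 are named in the submitters' processing notes. The deposited summed exon length of each gene, an other kind of value per the file headers, served to divide levels by length. Genes passing edgeR's filterByExpr (22014 of 37965, holding 99.96% of counts) were tested in R 4.3.3 with edgeR 4.0.16 (quasi-likelihood test, TMM factors, knockout against wild type, two-sided, no replicate block, Benjamini-Hochberg adjustment over all tested genes, threshold 0.05). Standard errors and 95% intervals were derived from the F statistic. Correlations used log2 CPM with a prior count of 2. Alternatives used DESeq2 1.42.0, limma 3.58.1, other scalings and filters, the replicate number as a block, and each library left out. The edgeR fit was tried on simulated counts in which a small part of the genes changed, about equally up and down. Such counts cannot test how the choice of library scaling acts on these data. The genes, lists and alternatives were chosen with earlier results of these data known, and core exon length was added after the annotation was seen. Planned lists of 42 symbols were matched through a RefSeq table (Zm-B73-REFERENCE-NAM-5.0). Of these, 27 were found there and 0 were paired with an ID of the count table, so lists, markers and promoter motifs were not analysed here. The text names the 3 genes, the nearest genes by position and the most similar gene to each.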

Additional observations from a re-analysis of the deposited data

How the results depend on the processing

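The direction of change was the same in all 16 alternatives for each of nkd1, nkd2 and vp1, and the adjusted p stayed on the same side of 0.05 in 47 of the 48 results. The exception was nkd2 with library totals (-0.27, edgeR adjusted p = 0.0246). Over the alternatives, the log2 fold change ranged from 0.01 (library totals) to 0.16 for nkd1 (adjusted p 0.13 to 0.942), from -0.27 to -0.1 for nkd2 (0.0246 to 0.463) and from 0.5 to 1.15 for vp1 (0.0555 to 0.428). Leaving out each library gave 0.06 to 0.16 for nkd1, -0.22 to -0.1 for nkd2, 0.5 to 1.15 for vp1 and 2783 to 4012 changed genes. A fit with a replicate block gave 0.12, -0.16 and 0.75, none past the threshold, with 3000 changed genes against 4086. The edgeR adjusted p were 0.286, 0.287 and 0.111 with the block, against 0.216, 0.24 and 0.204 without it. For vp1, the SE was 0.27 with the block and 0.37 without it. Deviations from the group means of libraries with the same number had correlations of 0.1, 0.1, -0.05 and -0.13. For 2 of the 8 libraries, the best match was the one with the same number. With 4 libraries per group, these values cannot settle whether the numbers pair libraries. The main fit had no block because the labels do not say that equal numbers pair libraries. The difference in the nkd1 share was 3.65 percentage points, 3.2 without division by length, 3.2 with core length, and 3.12 to 4.28 without each library. With library totals, the lower neighbours of nkd1 and vp1 and the gene most like nkd1 had values below 0 in place of above 0, none past the threshold (-0.061, -0.101 and -0.0022), and the upper neighbour of vp1 passed (-0.28, edgeR adjusted p = 0.0294). That scaling moved the median of all tested genes to -0.12, and relative to the median these 4 genes lay at 0.06, 0.02, 0.12 and -0.16, against 0.06, 0.02, 0.12 and -0.17 with TMM factors. The lower neighbour of vp1 lay between -0.0079 and 0.0425 without each library. The gene most like vp1, chosen for following it, lay between 0.67 and 1.31 without each library, past the threshold without knockout replicate 1 or wild type replicate 2 (the lowest knockout and the highest wild type value of vp1) and not without any of the other 6. Dixon ratios flagged 0 of 8 sets of 4 values, too few to judge by. Low counts limit what can be said of vp1.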
